A study of Mus musculus with 2 samples.

Results

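The genes described here encode the subunits of the mitochondrial respiratory chain and of ATP synthase, measured in one mouse T-cell leukemia before and after the loss of an RNA hairpin against Ikaros. Members were taken by gene symbol from the protein-coding rows of the count table: Nduf genes of complex I, the 4 Sdh genes of complex II, Uqcr genes and Cyc1 of complex III, Cycs (cytochrome c), Cox4 to Cox8 genes of complex IV and Atp5 genes of ATP synthase, together with the 13 genes encoded in mitochondrial DNA. This gave 101 of the 27179 rows, 88 nuclear and 13 mitochondrial. A further 5 rows matched the symbols but were annotated as pseudogenes and were not members.

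ALL211 is a primary T-cell acute lymphoblastic leukemia that arose with the transgenes Vav-tTA and TRE-GFP-shIkaros, in which a tetracycline-controlled activator expressed from the blood-cell Vav promoter drives GFP together with an shRNA against Ikaros, the transcription factor encoded by Ikzf1. Both groups carried these transgenes, and both consisted of T-ALL cells sorted from the spleens of leukemic recipient mice. The untreated sample was sorted as GFPhigh, and the sample from mice given Dox for 3 days, which shuts off the hairpin, was sorted as GFPmid. Each group is 1 library, although the series' design names a pair of mice per condition. The sources do not say whether the RNA of both mice was combined, and the labels give no ages.

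With 1 library per condition there is no measure of the spread between animals, no test between conditions and no p-value. Each ratio below carries an exact Clopper-Pearson 95% interval that covers counting error only, and 3 days of Dox, the GFP gate and differences between mice cannot be told apart. In these bulk samples, fewer cells with a transcript and less transcript per cell cannot be told apart either. The libraries held 16960042 counts (untreated) and 16484613 counts (Dox). Levels are TMM-scaled CPM, the usual depth-normalised count, levels per length are RPKM (CPM per 1000 bases of the gene), and log2 ratios of Dox to untreated include a prior count of 2. A gene is called measured where either library reached 1 CPM, which held for 12125 genes and for 94 members, 81 nuclear and all 13 mitochondrial. A gene that reached this level in 1 library alone had to differ, so counts over measured genes describe what passed and not every member.

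The check of the labels was Ikzf1 itself, at 120.5 CPM before and 1229 CPM after Dox, a 10.2-fold ratio (95% interval 9.75 to 10.7). All 14 markers of T cells were measured in both libraries, with a sum of 7810 CPM untreated and 10465 CPM with Dox. Markers of other cell types also differed between the libraries. Their counts stand beside the 13.6% of all measured genes that were at least 2-fold higher. Several reached 1 CPM only with Dox, such as C1qa (0.586 and 5.86 CPM) and Itgax (0.117 and 10.9 CPM). For those, passing the filter favoured a higher call. Fcgr1, a macrophage marker that was not measured, had 7 and 9 counts. All 11 measured macrophage markers of 14 were at least 2-fold higher with Dox (summed level 14.4 and 170 CPM; Marco 0 in both, Cd14 0 in the untreated library), as were 6 of 7 measured dendritic cell markers of 8 (5.27 and 54.5 CPM; Batf3, Zbtb46, Siglech and Clec9a 0 in the untreated library). The 3 measured B cell markers of 10 were at least 2-fold higher (347.5 and 954 CPM, of which Ighm alone gave 346 and 948 CPM), with the defining genes Ebf1 and Pax5 at 0 in both libraries. Of 10 erythroid markers, 7 of 9 measured were at least 2-fold higher. Tfrc, the transferrin receptor of many proliferating cells, was at 355 and 210 CPM, and the other 9 erythroid markers summed to 12.1 and 79.1 CPM. Neutrophil markers summed to 5.33 and 10.9 CPM and natural killer markers to 0.644 and 5.62 CPM. The part of these other cells in the respiratory results was not tested.

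The respiratory chain passes electrons from NADH (complex I) and succinate (complex II) through ubiquinone to complex III, then through cytochrome c to complex IV, where oxygen is reduced. The proton gradient made on the way drives ATP synthase, a rotary enzyme with an F1 catalytic head and a membrane-embedded c ring. Complexes I, III, IV and ATP synthase are assembled from subunits made in the cytosol and subunits encoded in mitochondrial DNA, whereas complex II is wholly nuclear. In proliferating T cells this machinery supplies both ATP and the electron sink needed for biosynthesis.

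Several members have near-identical copies elsewhere in the mouse genome, and the sequences of 5 of them are shown first because they bear on which members can be counted reliably. Each line gives 60 coding bases of the member in a GENCODE M21 transcript (GRCm38), and each stretch was found unchanged in the annotated copy named with it. No letters are in capitals because none of the 60 bases differed.

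COX2 (copy Gm28661, an unprocessed pseudogene on chromosome 1): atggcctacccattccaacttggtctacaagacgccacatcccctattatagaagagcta
Cycs (copy Gm10053, annotated as protein-coding, chromosome 19): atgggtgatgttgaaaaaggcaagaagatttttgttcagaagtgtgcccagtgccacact
Atp5g1 (copy Gm10039, a processed pseudogene on chromosome 11): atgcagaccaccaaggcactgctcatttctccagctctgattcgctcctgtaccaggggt
Ndufa12 (copy Gm15920, a processed pseudogene on chromosome 5): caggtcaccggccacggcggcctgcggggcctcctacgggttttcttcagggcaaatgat
Atp5md (copy Gm14539, a processed pseudogene on chromosome X): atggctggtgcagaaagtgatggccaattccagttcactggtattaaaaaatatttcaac

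The stretches are coding bases 1 to 60, except in Ndufa12, where bases 49 to 108 are shown. Over the whole coding sequence, placed without gaps, COX2 was identical to its copy at all 681 bases compared, Cycs at all 315 and Atp5md at all 174. Atp5g1 differed from Gm10039 at 1 of 408 bases. For Ndufa12 only 399 of the 447 coding bases could be compared, and it differed from Gm15920 at 2 of these. A read that lies within such a stretch cannot be assigned to one locus, and the sources do not say how reads with several alignments were counted. To describe this for every member, the share of its 50-base windows that occur in a transcript of another annotated gene was computed, here called the shared-window share. These 4 nuclear members and COX2 reach 28.5% or more. The 4 nuclear ones were chosen for display because they are the only measured members with ratios beyond 2-fold, as described next. Other members with large shares were not shown, such as Atp5l (68.5%, log2 ratio −0.89) and Atp5h (50.5%, log2 ratio 0.12).

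Nuclear members were mostly lower with Dox and all 13 mitochondrial members were higher. The median log2 ratio was −0.34 over the 81 measured nuclear members (quartiles −0.58 and −0.07) and 0.53 over the 13 mitochondrial members (0.04 to 0.73), against −0.01 over all genes measured (quartiles −0.56 and 0.54). Of the nuclear members, 67 had a ratio below 1 and 14 above, or 52 and 29 with the trend in gene length removed, as described further on. The difference was small for most genes: 4 of the 94 measured members were lower by 2-fold or more, against 13% of all measured genes, and none was 2-fold higher, against 13.6%. At a 1.5-fold threshold, 19 nuclear members were lower (23.5%), near the 24.1% of all measured genes, and 2 were higher (2.47%), below the 23.6% of all measured genes. The counting interval lay wholly below 1 for 58 nuclear members (71.6%, against 40.0% of all measured genes) and wholly above 1 for 8 (9.88%, against 38.7%). The members are abundant, with a median untreated level of 154 RPKM against 11.9 RPKM for all measured genes, so their intervals are narrow. Most nuclear members thus lay below 1, by small amounts.

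**Figure D1:**
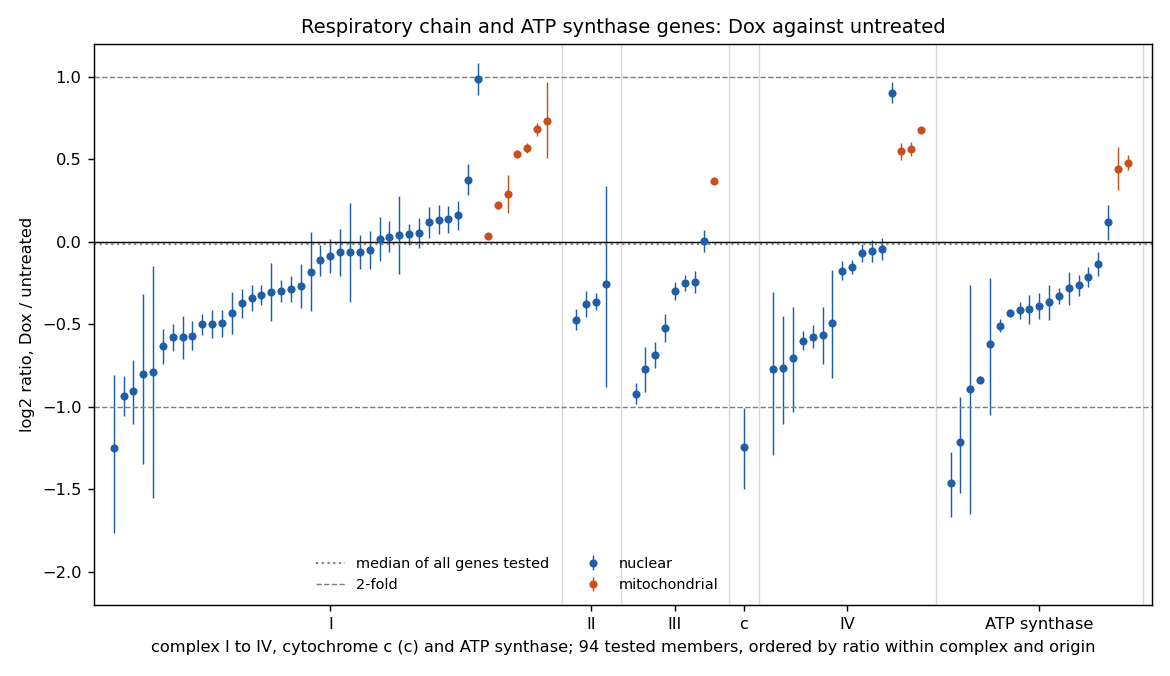
Log2 ratio (Dox over untreated) of the 94 measured members, ordered within each complex, nuclear in blue and mitochondrial in orange, with exact 95% counting intervals from 1 library per condition. Solid, dotted and dashed lines mark equal levels, the median of all measured genes and 2-fold differences. All 13 orange points lie above 0, and 67 of the 81 blue points lie below 0.

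Summed over members, the nuclear genes took 1.73% of all counts in the untreated and 1.33% in the Dox library, and the mitochondrial genes 2.11% and 2.85%. In scaled levels the nuclear sum was 17160 CPM untreated and 13380 CPM with Dox, a ratio of 0.780 (interval 0.775 to 0.784). The mitochondrial sum was 20936 and 28708 CPM, a ratio of 1.37 (1.37 to 1.38). Because the directions are opposite, the share of all members together was 3.83% in the untreated and 4.18% in the Dox library. The count ratio of mitochondrial to nuclear members does not depend on the scaling of the libraries. It was 1.22 untreated and 2.15 with Dox, a ratio of ratios of 1.76 (95% interval 1.75 to 1.77, counting error only).

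This ratio was higher with Dox in every complex of mixed origin, by different amounts. The ratio of ratios was 1.41 in complex I (1.39 to 1.43), 1.71 in complex III (1.68 to 1.74), 1.72 in complex IV (1.70 to 1.75) and 2.01 in ATP synthase (1.94 to 2.07). The counts were far from equal between origins at the start: complex I had 2.12 mitochondrial counts per nuclear count in the untreated library, complex III 2.12, complex IV 2.98 and ATP synthase 0.0565. ATP synthase therefore had both the lowest starting ratio and the largest ratio of ratios, and complex I the smallest. Single genes weigh on this order, and it was not computed without them. In the untreated library Atp5b gave 44874 of 129199 nuclear and ATP6 gave 6474 of 7305 mitochondrial counts of ATP synthase.

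**Figure D2:**
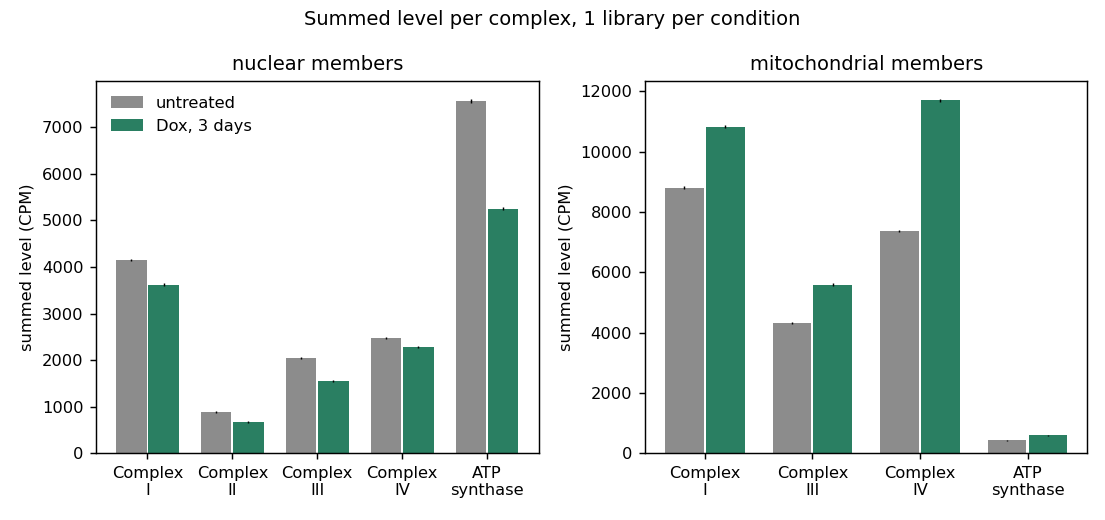
Summed level in CPM of nuclear members (left) and mitochondrial members (right) of each complex in the untreated library (grey) and the Dox library (green), with approximate 95% Poisson error bars that are narrow at this depth, 1 library per condition. Every nuclear sum is lower and every mitochondrial sum higher with Dox; nuclear ATP synthase stands at 7568 CPM untreated and 5247 CPM with Dox.

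Complex I is the NADH dehydrogenase of the chain. Its 39 nuclear members, 38 of them measured, summed to 4150 CPM untreated and 3619 CPM with Dox (ratio 0.872, interval 0.863 to 0.882), with a median log2 ratio of −0.28. Of the 38, 27 were lower and 11 higher. With the trend in gene length removed, the median was −0.04, with 20 lower and 18 higher, and the median of the accessory subunits went from −0.18 to 0.03. The 7 nuclear core subunits, which bind the flavin and the iron-sulfur clusters, summed to a ratio of 0.859 (0.840 to 0.878), and none was 1.5-fold different. The 32 accessory subunits, 31 of them measured, summed to a ratio of 0.876 (0.865 to 0.887). Of the 31, 6 (19.4%) were lower by 1.5-fold or more, against 24.1% of all measured genes. Only 1 (3.23%) was higher by as much, against 23.6%. The 6 include Ndufb4 (52 and 28 counts, shared-window share 37.0%) and Ndufb4c (94 and 51 counts). Ndufb4c, a member by its protein-coding row, is annotated in GENCODE M21 as a processed pseudogene. It is the copy that shares most windows with Ndufb4, so these are not clearly separate subunits. The counting intervals of core and accessory sums overlap.

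Among accessory subunits the lowest ratio with no shared window belonged to Ndufa5, a subunit of the matrix arm, at 94.5 CPM untreated and 49.5 CPM with Dox (log2 ratio −0.93, ratio 0.523, interval 0.480 to 0.570). Ndufa12, another matrix-arm subunit, had 134 and 53 counts, 7.85 and 3.24 CPM (log2 ratio −1.25, ratio 0.412, interval 0.294 to 0.571), with a shared-window share of 53.8%. In the other direction, Ndufv3 (chr17:31520115-31531326, GRCm38.p6), an accessory subunit of the NADH-binding module, was at 74.0 CPM untreated and 147 CPM with Dox. Its ratio of 1.98 (1.85 to 2.12; log2 0.99) was the highest of all members, and none of its windows is shared. Ndufa1, a small membrane-arm subunit, was at 93.6 and 122 CPM (log2 ratio 0.38). The NADH-binding module was thus split, since its core subunits Ndufv1 and Ndufv2 had log2 ratios of −0.37 and −0.30. Ndufa4, named as a complex I subunit and since found in complex IV, was at 281 and 199 CPM (log2 ratio −0.50), and its paralogue Ndufa4l2 had 0 counts in both libraries.

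Complex II, succinate dehydrogenase, also works in the tricarboxylic acid cycle. Its 4 genes all had ratios below 1, and their sum was 889 CPM untreated and 674 CPM with Dox (ratio 0.758, interval 0.739 to 0.777). The iron-sulfur subunit Sdhb was at 289 and 208 CPM (log2 ratio −0.47), the membrane anchor Sdhc at 180 and 138 CPM (−0.38) and the flavoprotein Sdha at 418 and 325 CPM (−0.36). Sdhd, the other membrane anchor, had only 54 and 43 counts (log2 ratio −0.26), and its interval of 0.543 to 1.26 includes 1. None of the 4 was 1.5-fold lower, and none shares a 50-base window with another gene. Per length, Sdhd stood at 2.46 RPKM in the untreated library and the other 3 between 146 and 269 RPKM, so the count table holds Sdhd at a level far under its partners.

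Complex III carries electrons from ubiquinol to cytochrome c. Of its 9 nuclear members 8 were measured, 7 lower and 1 higher, and their sum was 2048 CPM untreated and 1547 CPM with Dox (ratio 0.755, interval 0.743 to 0.768). The catalytic haem subunit Cyc1 (cytochrome c1; chr15:76343513-76346260) was the lowest at 367 and 194 CPM (log2 ratio −0.92, ratio 0.529, interval 0.506 to 0.552), with no shared window. Uqcrb, a ubiquinone-binding subunit, was at 72.0 and 42.2 CPM (−0.77; shared-window share 43.2%), and Uqcrq, its small neighbour in the complex, at 206 and 128 CPM (−0.69). The Rieske iron-sulfur protein Uqcrfs1 was at 245 and 207 CPM (−0.24), and the core proteins Uqcrc1 and Uqcrc2 had log2 ratios of −0.30 and −0.25. The hinge protein Uqcrh was level, at 215 and 216 CPM (log2 ratio 0.00, interval of the ratio 0.957 to 1.05). The 3 electron-carrying or hinge subunits Cyc1, Uqcrfs1 and Uqcrh, which meet at the site of cytochrome c reduction, therefore spanned the whole range of the complex. Uqcr11 had 0 counts in both libraries.

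Cycs encodes cytochrome c, the mobile electron carrier between complexes III and IV and a trigger of apoptosis when released to the cytosol. It had 488 counts in the untreated and 197 in the Dox library, 28.6 and 12.0 CPM (log2 ratio −1.24, ratio 0.421, interval 0.355 to 0.497; 2.38-fold lower). Its level per length, 9.35 RPKM untreated, was low beside its electron donor Cyc1 at 307 RPKM. Of its windows 28.5% are shared, with 76 other genes, and its coding sequence is identical to that of Gm10053 as printed above.

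Complex IV, cytochrome c oxidase, was the nuclear complex with the smallest difference in its sum and, among complexes of several genes, the lowest median. Its 13 measured nuclear members of 18 summed to 2475 CPM untreated and 2281 CPM with Dox (ratio 0.921, interval 0.909 to 0.934), although 12 of the 13 were lower and the median log2 ratio was −0.49. The sum and the median differ because several abundant genes were nearly level and 1 abundant gene, Cox7a2l, was higher. Without Cox7a2l, left out after seeing the data, the sum was 2297 and 1949 CPM (ratio 0.848, interval 0.836 to 0.861), below the ratio of complex I. Cox5a, a matrix-side subunit, was at 346 and 229 CPM (log2 ratio −0.60). Cox4i1, the main isoform of the largest nuclear subunit, was at 505 and 455 CPM (−0.15), Cox6c had a log2 ratio of −0.07, Cox6a1 was at 232 and 223 CPM (−0.06) and Cox6b1 at 226 and 220 CPM (−0.04). With the trend in gene length removed these 4 abundant genes turned higher, at 0.10 for Cox4i1, 0.22 for Cox6c, 0.23 for Cox6a1 and 0.25 for Cox6b1, and 7 of the 13 members remained lower. The median of complex IV was then −0.22 and no longer the lowest, beside −0.23 in both complex II and ATP synthase.

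The isoforms of complex IV subunits did not move alike. Cox7a2l (chr17:83501917-83514333), also called SCAF1, which links complexes III and IV into supercomplexes, had 3021 counts untreated and 5423 with Dox, 177 and 331 CPM (log2 ratio 0.90, ratio 1.87, interval 1.79 to 1.96). Its paralogues were lower and scarce: Cox7a2 at 12.8 and 7.51 CPM (−0.76), and Cox7a1, the isoform known from heart and muscle, at 5.92 and 3.42 CPM (−0.77). Cox7a2l is known as an assembly factor rather than a stoichiometric subunit, and it is counted in the complex IV sum by its symbol. Cox6b2, known from testis, was at 11.5 and 8.18 CPM (−0.49) beside Cox6b1. Cox7b was at 251 and 168 CPM (log2 ratio −0.57), and Cox8a had a log2 ratio of −0.17 (0.11 with the length trend removed). The tissue-restricted isoforms Cox8b, Cox8c and Cox7b2 had 0 counts in both libraries, and Cox6a2 had 9 and 10 counts. Cox4i2, the isoform induced by low oxygen in lung, had 10 counts untreated and 0 with Dox (interval of the ratio 0 to 0.465). Setting the Dox count at a floor of 3 counts would make it 3.20-fold lower. With Uqcr11 and Ndufa4l2 these are the 7 members that were not measured.

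ATP synthase had the lowest ratio of summed levels among nuclear complexes with more than 1 gene, though its median log2 ratio of −0.41 was that of complex III. All 17 nuclear members were measured, 16 were lower, and their sum was 7568 CPM untreated and 5247 CPM with Dox (ratio 0.693, interval 0.687 to 0.699). Of this sum Atp5b alone held 2629 CPM untreated and 1474 CPM with Dox. This 1 gene therefore weighs heavily in the rank of the complex and in the sum of the F1 head, and no sum without it was computed. The 5 subunits of the F1 head summed to 5324 and 3534 CPM (ratio 0.664, 0.657 to 0.671). Atp5b, the catalytic beta subunit and the most abundant nuclear member per length at 1399 RPKM untreated, was at 2629 and 1474 CPM (log2 ratio −0.83, ratio 0.561, interval 0.552 to 0.570). Atp5a1, the alpha subunit with which it alternates in the head, was at 1888 and 1400 CPM (−0.43), so the alpha and beta transcripts were not lowered in equal measure. The other head subunits, Atp5c1, Atp5d and Atp5e, had log2 ratios of −0.33, −0.37 and −0.21 (0.10 for Atp5e with the length trend removed). The 4 genes of the peripheral stalk, which holds the head in place, summed to a ratio of 0.805 (0.786 to 0.824), and among them Atp5h was the only nuclear ATP synthase member with a ratio above 1 (82.8 and 89.9 CPM, log2 ratio 0.12, shared-window share 50.5%). The 5 other membrane subunits summed to a ratio of 0.820 (0.794 to 0.846). They include Atp5md, also called DAPIT (20.2 and 8.61 CPM, log2 ratio −1.22, shared-window share 41.9%), Atp5l (3.28 and 1.71 CPM, −0.89, 68.5% shared) and Atp5mpl (197 and 180 CPM, −0.13, or 0.19 with the trend in gene length removed, no shared window).

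The c ring is encoded by 3 genes that yield the same mature protein from different precursors, so its transcript pool can be described as a mixture. Atp5g3 was at 761 and 535 CPM (log2 ratio −0.51), Atp5g1 at 48.0 and 17.3 CPM (−1.46, ratio 0.361, interval 0.314 to 0.414) and Atp5g2 at 7.56 and 4.88 CPM (−0.62). Atp5g3 supplied 93.2% of the c-subunit counts in the untreated library (Wilson 95% interval 92.8 to 93.6) and 96.0% with Dox (95.6 to 96.4), while Atp5g1 supplied 5.88% and 3.11%. The c-ring sum, 817 and 557 CPM (ratio 0.682, 0.664 to 0.7005), was therefore mostly that of Atp5g3. Atp5g1, the member with the lowest ratio of all, lies at chr11:96072793-96075694, and 56.2% of its windows are shared.

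The 13 mitochondrial genes are transcribed as long polycistronic RNAs from both strands of mitochondrial DNA and cut at the tRNAs between them. With TMM scaling the counting interval lay above 1 for all 13, and the ratios were unequal. COX1, the catalytic core of complex IV, was the most abundant at 6627 CPM untreated and 10607 CPM with Dox (log2 ratio 0.68, ratio 1.60, interval 1.59 to 1.61), and it held 31.7% of mitochondrial member counts untreated and 36.9% with Dox. CYTB of complex III was at 4333 and 5596 CPM (0.37). ND1, the first coding gene of the polycistron, was close to level at 3478 and 3570 CPM (0.04, ratio 1.03, interval 1.02 to 1.04), and ND2 was at 2037 and 2376 CPM (0.22). ND6, the single member on the opposite strand, was at 527 and 845 CPM (0.68). The largest log2 ratio, 0.73, was that of ND4L, on 256 and 409 counts (interval of the ratio 1.42 to 1.95), which overlaps the intervals of COX1 and ND6. With no strand setting given in the sources, reads of ND6 and of RNA antisense to it cannot be told apart, and reads in the overlaps of ATP8 with ATP6 and of ND4L with ND4 are likewise uncertain.

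By complex, the 7 mitochondrial subunits of complex I summed to 8806 and 10817 CPM (ratio 1.23, interval 1.22 to 1.24), the 3 of complex IV to 7368 and 11699 CPM (1.59, 1.58 to 1.60) and the 2 of ATP synthase to 428 and 595.5 CPM (1.39, 1.35 to 1.43). Complex IV had the largest ratio of mitochondrial sums. Within complex I, ND1 and ND2 kept the sum low, since ND4, ND5 and ND6 had log2 ratios of 0.57, 0.53 and 0.68.

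**Figure D3:**
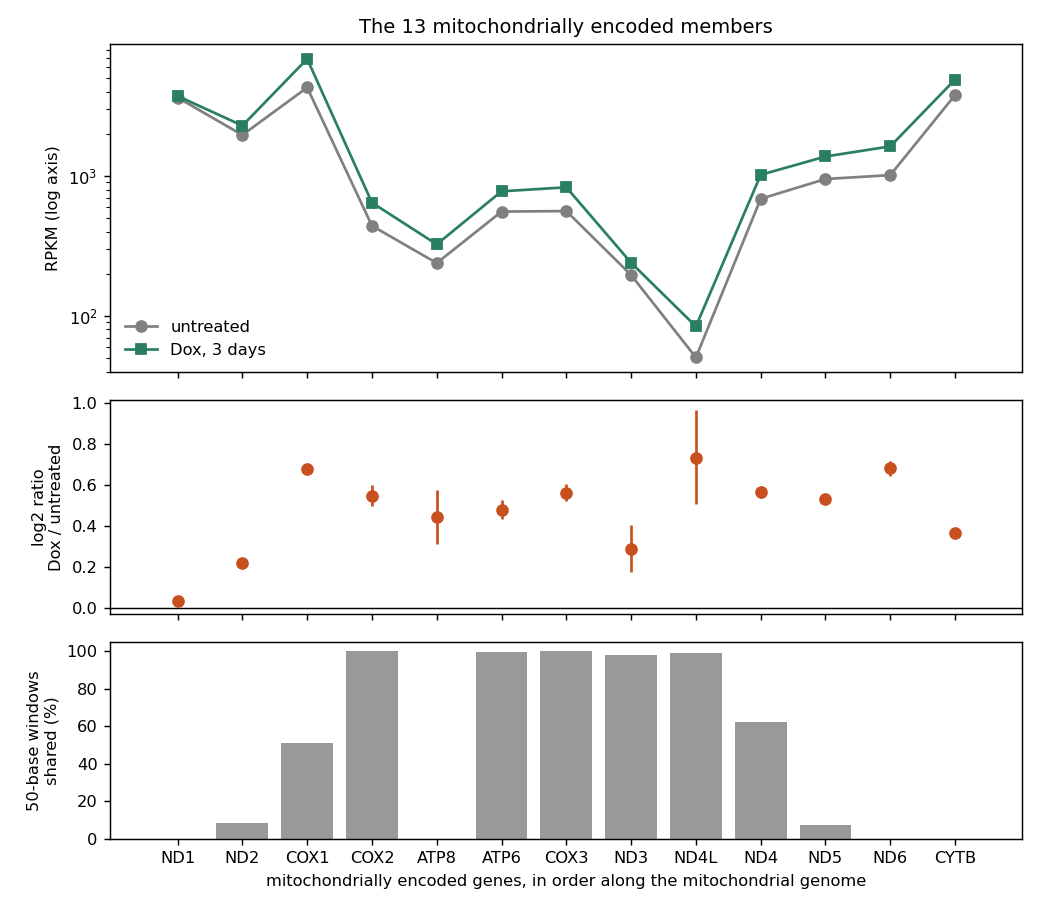
The 13 mitochondrial members in their order along the mitochondrial genome: level per length in RPKM on a log axis (untreated grey, Dox green), log2 ratio with exact 95% counting intervals, and percentage of 50-base windows shared with another annotated gene. Levels from COX2 to ND4 are at most 687 RPKM untreated, beside 3634 RPKM for ND1 and 4289 RPKM for COX1, and all but ATP8 of these genes have shared windows of 62.2% or more.

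The lowest levels per length were, apart from ATP8, those of genes with shared windows, but the 2 measures did not follow each other throughout. The untreated level was 3634 RPKM for ND1, 1962 for ND2, 4289 for COX1 and 3788 for CYTB, whereas COX2 was at 441, ATP6 at 557, COX3 at 561, ND3 at 196, ND4L at 50.5 and ND4 at 687 RPKM. ND5, at 952 RPKM, and ND6, at 1014 RPKM, lay between these groups. COX2, ATP6, COX3, ND3 and ND4L have shared-window shares of 98.0% or more, COX1 51.1% and ND4 62.2%, and the copies are annotated unprocessed pseudogenes on chromosome 1. ND1, ND6, CYTB and ATP8 share no window, and ND2 and ND5 share 8.19% and 7.61%. ATP8, at 239 RPKM, was low without an annotated match, though only annotated transcripts were searched. Over the 6 genes with a share under 20% the median log2 ratio was 0.41 and the summed ratio 1.23 (1.22 to 1.24), and over the 7 others 0.56 and 1.57 (1.56 to 1.58). Both groups were higher with Dox, and the part of shared sequence in their difference was not tested.

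Among nuclear members the shared-window share moved with both level and ratio. The 16 members with a share of at least 20% had a median untreated level of 46.4 RPKM and a median log2 ratio of −0.66. All 4 members at least 2-fold lower were among them (25%, against 13% of all measured genes). The 63 measured members with a share under 20% had a median level of 187 RPKM and a median log2 ratio of −0.30, and 0 of them were 2-fold lower. At 1.5-fold, 9 members of each group were lower, which is 56.25% of the 16 and 14.3% of the 63, against 24.1% of all measured genes. The summed ratios were 0.785 (0.769 to 0.801) at a share of 20% or more and 0.779 (0.775 to 0.784) under it, a group that still holds members with smaller shares such as Cox7a2l (17.7%). Another 2 members, Ndufb4b and Ndufb4c, had no matched protein-coding transcript. Level moved with ratio too: the 48 nuclear members with a mean of at least 100 CPM over both libraries had a median log2 ratio of −0.30 and none was 2-fold lower, and the 33 measured members under that mean had a median of −0.57. The parts of copies and of low counts in the 4 largest differences were not tested.

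**Figure D4:**
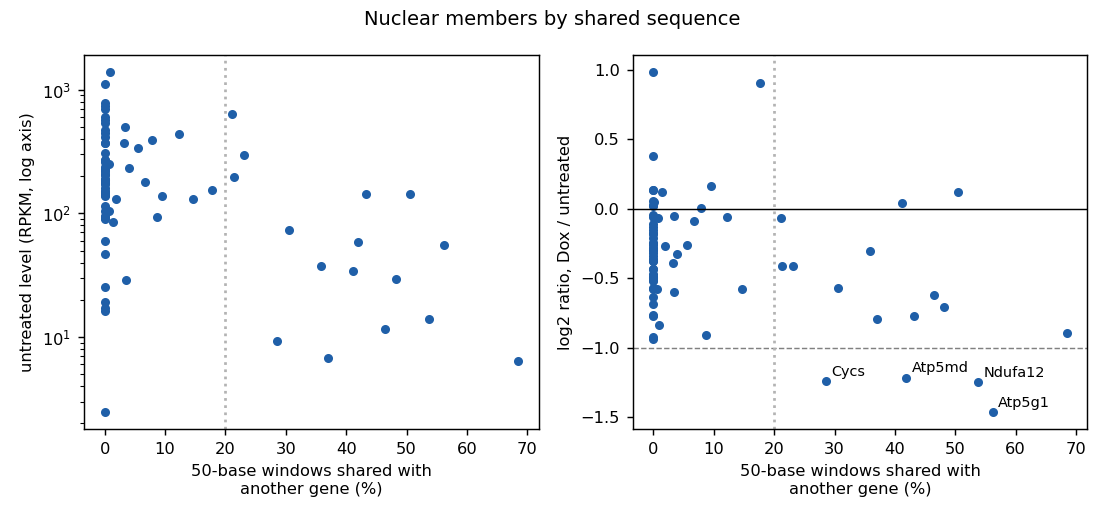
Nuclear members by the percentage of their 50-base windows shared with another annotated gene, against untreated level in RPKM on a log axis (left) and log2 ratio of Dox to untreated (right), 1 point per gene. The dotted line marks a share of 20% and the dashed line a 2-fold lower level; the 4 genes under the dashed line, Cycs, Atp5md, Ndufa12 and Atp5g1, all lie to the right of the dotted line.

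Gene length moved with the ratio over the whole table, and respiratory genes are short, with a median of 651 bases for nuclear members against 2716 for all measured genes. All measured genes under 500 bases had a median log2 ratio of −0.32, and the 18 nuclear members in that class −0.44. From 500 to 1000 bases the medians were −0.22 and −0.31 (38 members), from 1000 to 2000 bases −0.14 and −0.31 (20 members), and from 2000 to 4000 bases 0.00 and −0.43 (5 members). The members lay under the class median in all 4 classes. With the length trend removed, the nuclear median was −0.16, 9 members were 1.5-fold lower and the mitochondrial median was 0.74. The mitochondrial genes went against the trend, being short and higher. The part of length in the lower nuclear levels was not tested beyond this.

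**Figure D5:**
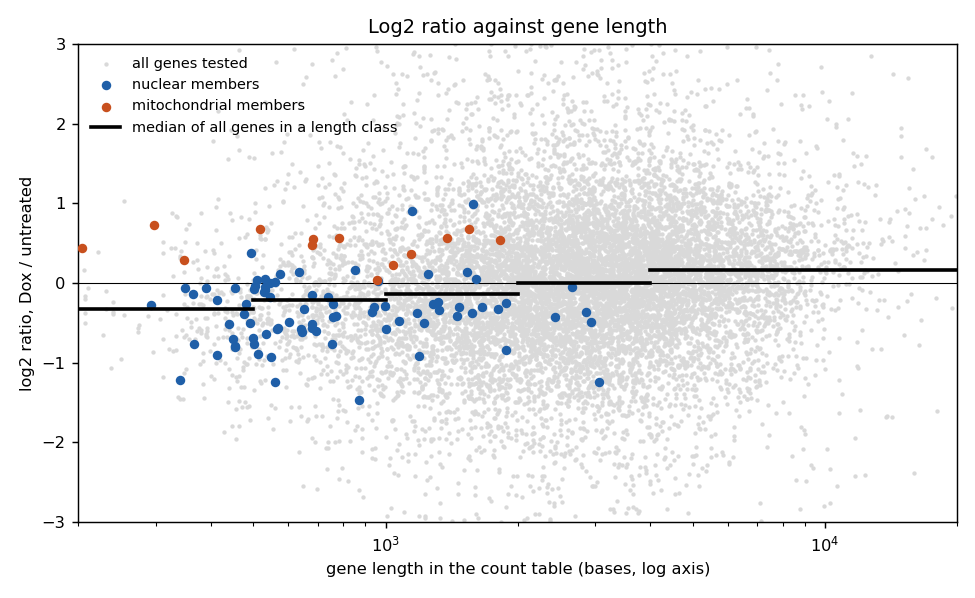
Log2 ratio of Dox to untreated against gene length in bases (log axis) for all measured genes (light grey), nuclear members (blue) and mitochondrial members (orange), with black bars for the median of all genes in each length class. The class medians go from −0.32 under 500 bases to 0.16 from 4000 bases; 423 genes, none of them a member, lie outside the axes.

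Genes that build, feed and regulate the chain were described from lists of known roles, whose counts are read against the 13% and 24.1% of all measured genes that were at least 2-fold and 1.5-fold lower and the 13.6% and 23.6% that were higher by as much. Of the 14 genes listed for complex I assembly 13 were lower, 4 of these by 2-fold or more (28.6%), and none was 2-fold higher. The 4 include Ndufab1 (16.6 and 7.45 CPM, −1.15), an acyl-carrier subunit of complex I that the symbol rule left out of the members. The median log2 ratio of the 14, −0.56, lay further from 0 than the −0.28 of the nuclear complex I members. Ndufaf4 was at 69.0 and 22.3 CPM (−1.63) and Ndufaf6, known from early assembly, at 22.0 and 8.55 CPM (−1.35), while Ndufaf3, which acts with Ndufaf4, had −0.26 and Tmem126b, an assembly factor of the membrane arm, was at 11.1 and 21.7 CPM (0.96). Of 34 assembly factors of the other complexes 32 were measured, and 2 of them were lower by 2-fold or more (6.25%, under the share of all genes; median −0.31; none higher). These were Bcs1l, which inserts the Rieske protein into complex III (26.4 and 12.4 CPM, −1.08), and Uqcc2, which supports cytochrome b synthesis (73.5 and 35.5 CPM, −1.05). The highest were Surf1, a complex IV assembly factor (0.47), and Uqcc3 (0.48).

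Most genes that maintain and transcribe mitochondrial DNA were lower. The counting interval lay wholly below 1 for 17 of 22 measured (77.3%, against 40.0% of all measured genes). It lay wholly above 1 for 2 (9.09%, against 38.7%). Of the 22, 6 lay below 0.5 of the untreated level (27.3%), 13 were 1.5-fold lower or more (59.1%) and none was 1.5-fold higher (median −0.81). Top1mt, the mitochondrial topoisomerase, was at 11.9 and 1.34 CPM (−3.04), and Tfb1m, which methylates the mitochondrial ribosomal RNA, at 14.6 and 4.34 CPM (−1.73). The helicase Twnk was at 43.3 and 17.2 CPM (−1.33), and Lrpprc, which stabilises mitochondrial messengers, at 182 and 75.1 CPM (−1.27). The transcription factor Tfam was closer to level (154 and 123 CPM, −0.33) and the polymerase Polrmt had −0.07. The replicative polymerase subunits Polg and Polg2 were the highest, with 0.20 and 0.34.

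Of 12 listed regulators of respiratory genes 11 were measured, and they split widely around a median of −0.03. Myc, a driver of mitochondrial biogenesis in proliferating cells, was at 266 and 18.9 CPM (log2 ratio −3.80, ratio 0.0712, interval 0.0633 to 0.0799). The PGC-1 family coactivators Pprc1 (90.4 and 17.95 CPM, −2.33) and Ppargc1b (7.09 and 2.93 CPM, −1.24) were also lower, and Ppargc1a had 0 and 2 counts. The DNA-binding factors known from respiratory promoters were near level: Nrf1 at 111 and 110 CPM (−0.01), Gabpa at 0.18, Esrra at −0.14 and Yy1 at 172 and 205 CPM (0.25). Ikzf1, on this list as the factor restored, was the highest at 3.35.

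In the neighbouring pathways the counts differed by list. All 18 genes of the tricarboxylic acid cycle were below 1, 3 of them at least 2-fold (16.7%, near the share of all genes; median −0.32): Suclg2, the GTP-specific succinyl-CoA ligase subunit (−1.39), fumarate hydratase Fh1 (227 and 92.7 CPM, −1.29) and Idh3a of NAD-dependent isocitrate dehydrogenase (−1.07). Pdha1 and Ogdh were near level at −0.03 each. Of 8 measured carriers and pores around ATP synthase 4 were 1.5-fold lower and none 1.5-fold higher (median −0.60), with the outer-membrane pore Vdac1 at 309 and 147 CPM (−1.07), the ADP/ATP carrier Slc25a5 at 1049 and 624 CPM (−0.75), Vdac3 at −0.32 and Ucp2 at 0.13. Of 13 genes of coenzyme Q synthesis 5 were lower by 2-fold or more (38.5%) and 1 was higher by as much (7.69%), while 3 were 1.5-fold higher or more (23.1%, near the share of all genes; median −0.67). Coq4 (20.4 and 6.11 CPM, −1.72) and Coq3 (31.8 and 11.3 CPM, −1.48) were the lowest, and Coq10a and Coq10b, coenzyme Q chaperones, were at 0.63 and 0.61. Coq8a was the gene at least 2-fold higher, on 25 and 65 counts.

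The promoters of the members were searched for the letters of sites known from respiratory genes, in the 250 bases before the start in RefSeq's GRCm38.p6 table, on both strands; 70 of the 88 nuclear members had an entry. The consensus site of NRF1 was in 13 of these (18.6%), against 9.90% of the 9038 measured protein-coding genes and 4.23% of all 27025 genes with a promoter entry. CCGGAAG, bound by ETS factors such as GABPA, was in 12 (17.1%, against 16.9% and 7.83%). CACGTG, the E-box of MYC, was in 6 (8.57%, against 9.96% and 6.86%), TGGGAA, an Ikaros core, in 13 (18.6%, against 23.3% and 24.1%) and AAGATGG, a YY1 site, in 1 (1.43%, against 5.32% and 5.18%). No motif here contains another, and matches were counted whether or not they overlap. Among the 15 members at least 1.5-fold lower with an entry, 3 (20%) held the NRF1 letters. The E-box was in 2 (13.3%) and the Ikaros core in 4 (26.7%). Of the 52 other measured members 10 (19.2%), 4 (7.69%) and 9 (17.3%) held these. The ETS site was in 2 of the 15 (13.3%) and 9 of the 52 (17.3%), and the YY1 site in 0 and 1. Of the 3 members with the lowest ratios among those with at least 5 CPM, Atp5g1 had 1 match, an E-box starting at base −44 before the start, which lies inside the gene span given above because other transcripts start further upstream, and Ndufa12 and Cycs had 0. A match describes letters in this window and is not evidence of binding.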

How the data were processed

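RNA sequencing was performed on sorted ALL211 T-ALL cells, 1 library per condition, both with the same batch date per the labels. The deposited tables hold whole-number read counts, one row per Entrez identifier, beside a gene length column. CASAVA 1.8.2, featureCounts (version not given) and the mm10 build are named, per the submitters' processing notes. Not given in the sources used here are the aligner, the strand setting, the annotation and the treatment of reads with several alignments. Symbols, biotypes and coordinates came from RefSeq's GRCm38.p6 table, which matched 25275 of 27179 identifiers. The 1904 rows without a symbol (1.20% and 0.977% of counts) stayed in the totals.

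Counts were scaled with TMM factors (1.01 and 0.994) from edgeR 4.0.16 under R 4.3.3, used for scaling only. Log2 ratios used a prior count of 2. The floor of 3 counts corresponds to 0.176 and 0.183 CPM. Intervals are exact Clopper-Pearson at 95%, treating the counts of both libraries as binomial given their sum; shares have Wilson intervals, and the ratio of mitochondrial to nuclear counts a log-normal one. All cover counting error only. Shared windows compared 1 GENCODE M21 transcript per member, on either strand, with transcripts of other genes. Genes whose locus overlaps that of the member were left out. Calculations used Python 3.11.15 (scipy 1.17.1, statsmodels 0.14.6, pandas 2.3.3, numpy 2.4.6; figures with matplotlib 3.10.9) and were tested on simulated data.

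The members and gene lists were chosen with earlier results of these data known. Named genes are, in each complex, the 2 lowest and the 2 highest nuclear members with at least 5 CPM, members beyond 2-fold, isoform pairs, Cycs, the members not measured and, in each list, the 2 lowest and the 2 highest. Other named genes were chosen for their role after their values were seen. Alternatives were total-count, upper-quartile and DESeq2 1.42.0 scaling, TMM without mitochondrial genes, prior counts of 0.5 and 5, a minimum of 1 count or of 5 CPM in place of 1 CPM, and removal of the trend with gene length. Protein sequences were not used here. Some genes that the naming rule covers are not reported here.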

Additional observations from a re-analysis of the deposited data

How the results depend on the processing

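The nuclear and mitochondrial medians and sums kept their direction under the alternatives run. The nuclear median log2 ratio was −0.16 and the mitochondrial median 0.74 with the length trend removed. With that trend removed the balance at 2-fold turned: 2 members were 2-fold lower or more, 3 were 2-fold higher or more and 9 nuclear members were at least 1.5-fold lower. Upper-quartile scaling left 1 member at least 2-fold higher. Restriction to members with under 20% shared windows, chosen after seeing the data, gave a mitochondrial median of 0.41, a summed mitochondrial log2 ratio of 0.30, 0 members at least 2-fold lower and 9 nuclear members at least 1.5-fold lower, partly by construction because fewer genes enter. The cause of the other shifts was not tested. Over the 81 nuclear members, 15 went from lower to higher with the length trend removed, 7 of them in complex I and 5 in complex IV; these include Atp5mpl (0.19) and Cox6b1 (0.25). The sign also changed for Uqcrh (−0.02) under total-count and DESeq2 scaling. ND1 stayed above 0 under both, at 0.02 beside 0.04 with TMM, but no counting interval was computed under them. The median of all genes measured lay between −0.03 and 0.03 in every setting. Without Cox7a2l, left out after seeing the data, the summed log2 ratio of nuclear complex IV was −0.24. Length trend removal does not apply to summed levels. No paired analysis was possible because each condition has 1 library, and no replicate could be left out. Low counts limit Cox4i2, Cox6a2, Sdhd, Ndufb4 and Atp5l.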

Other observations

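The 2 mitochondrial ribosomal RNAs, which are not subunits and stayed out of the member sums, had larger ratios than any of the 13 mitochondrial coding genes. mt-Rnr1 had 4939 counts untreated and 11395 with Dox, 289 and 696 CPM (log2 ratio 1.27, ratio 2.40, 95% counting interval 2.33 to 2.49). mt-Rnr2 had 6442 and 14582 counts (log2 ratio 1.24, ratio 2.36, 2.29 to 2.43). They lie upstream of ND1, whose log2 ratio was 0.04, so neighbouring genes of the mitochondrial genome stood at both ends of the range. Their levels per length, 303 and 239 RPKM untreated, were below that of ND1 at 3634 RPKM. The labels do not say whether RNA was selected before library construction.

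The pseudogene rows that match member symbols were counted separately in the table. Ndufs6b was at 54.8 and 34.9 CPM (log2 ratio −0.65), beside Ndufs6 at 74.2 and 49.6 CPM (−0.58). Ndufs5-ps was at 109 and 84.7 CPM (−0.36), above the parent Ndufs5 at 17.5 and 17.95 CPM (0.04). Atp5c1-ps (−0.35), Uqcrh-ps1 (−0.16) and Ndufa11b (0.12) had fewer counts than their parent genes.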
